A study of Mus musculus with 32 samples.

Results

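A set of 5 liver genes that sense foreign chemicals or pair with such a sensor were described over 8 groups of mice: Nr1i2, Nr1i3, Ahr, Arnt and Rxra. They were chosen by name, as the receptors PXR (Nr1i2), CAR (Nr1i3) and AHR (Ahr) with the partner proteins ARNT (Arnt) and RXR alpha (Rxra), and they are 5 of the 55471 genes in the count table. All 5 passed the filter on low counts and were among the 14456 genes tested. The livers came from male C3H/HeNCrl mice, an inbred strain, and all groups shared a high fat diet. Mice were kept under a short light (SL) or a long light (LL) photoperiod, 16 mice each, and 4 mice per photoperiod were taken at zeitgeber time (ZT, hours on the light schedule) 0, 6, 12 and 18. How long the light lasted and what event defines ZT0 is not stated in the labels, and no mouse is labelled as having received a drug or other foreign compound. Each library was a separate mouse, so the error below is the spread between animals.

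PXR and CAR are nuclear receptors that are abundant in hepatocytes and bind DNA together with RXR alpha. PXR is switched on by drugs, steroids and bile acids and is known for inducing Cyp3a genes, and CAR responds to phenobarbital-like compounds and is known for inducing Cyp2b genes. AHR waits in the cytoplasm in a complex with HSP90 proteins, binds dioxin-like and plant-derived compounds, and pairs with ARNT in the nucleus to induce Cyp1a genes. The counts below measure the transcripts of these proteins, not their activity.

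Nr1i2 and Nr1i3 moved together over the day, with high levels around ZT6 under SL and at ZT12 to ZT18 under LL. Arnt followed in part. It was high at the same times but stayed high at SL ZT12, where its SL and LL means were 61.3 and 61.4 CPM. Ahr passed no test. Rxra moved little, and its calls changed when single libraries were left out. The promoter windows of Nr1i2, Nr1i3 and Arnt are shown with that of Rxra, since the 4 differ in composition. Each runs from 250 bases before to 50 bases after the RefSeq start on GRCm38.p6, 5′ to 3′ on the gene's strand, with motif matches in capitals. The windows lie at chr16:38294775-38295074 on the minus strand for Nr1i2, chr1:171213720-171214019 on the plus strand for Nr1i3, chr3:95434140-95434439 on the plus strand for Arnt and chr2:27676951-27677250 on the plus strand for Rxra, which has a further annotated start.
Nr1i2: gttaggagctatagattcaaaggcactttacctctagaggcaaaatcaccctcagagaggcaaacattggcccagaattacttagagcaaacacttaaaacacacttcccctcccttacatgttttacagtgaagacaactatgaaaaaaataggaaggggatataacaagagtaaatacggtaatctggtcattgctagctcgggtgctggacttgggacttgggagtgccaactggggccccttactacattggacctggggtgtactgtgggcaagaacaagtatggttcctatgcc
Nr1i3: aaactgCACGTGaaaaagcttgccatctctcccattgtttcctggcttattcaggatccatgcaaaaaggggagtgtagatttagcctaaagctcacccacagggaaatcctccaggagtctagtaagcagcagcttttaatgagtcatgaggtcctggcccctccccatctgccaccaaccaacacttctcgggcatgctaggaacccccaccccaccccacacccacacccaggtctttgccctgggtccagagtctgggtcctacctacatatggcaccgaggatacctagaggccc
Arnt: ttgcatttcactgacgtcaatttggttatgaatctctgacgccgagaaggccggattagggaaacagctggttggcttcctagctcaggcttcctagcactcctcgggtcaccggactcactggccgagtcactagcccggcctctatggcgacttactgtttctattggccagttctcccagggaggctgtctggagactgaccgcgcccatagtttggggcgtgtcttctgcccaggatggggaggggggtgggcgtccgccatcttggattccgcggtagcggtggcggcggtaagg
Rxra: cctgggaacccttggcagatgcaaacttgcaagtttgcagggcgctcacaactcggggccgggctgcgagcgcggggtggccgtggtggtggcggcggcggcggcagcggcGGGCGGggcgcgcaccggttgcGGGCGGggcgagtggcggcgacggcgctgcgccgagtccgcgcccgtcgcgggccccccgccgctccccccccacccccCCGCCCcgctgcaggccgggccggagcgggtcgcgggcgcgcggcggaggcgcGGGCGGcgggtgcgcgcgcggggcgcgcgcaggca
GC content was 45.3% in the Nr1i2 window, 54% in that of Nr1i3, 59.3% in that of Arnt and 83% in that of Rxra, with 2, 3, 19 and 55 CpG pairs. For each window 6 motifs were searched on both strands. The E-box CACGTG, bound by CLOCK and its partners, occurs in 7.15% of 32851 RefSeq windows of this length and was found once here, at position -244 of Nr1i3. The GC box GGGCGG, present in 35.7% of windows, was found 4 times in the Rxra window. The AHR element TNGCGTG (5.07% of windows), the D-box TTANGTAA of the PAR bZIP factors (2.32%), the nuclear receptor motif AGGTCA (16.3%) and TATAAA (13.6%) had no match in these 4 windows. The window at the further start of Rxra (chr2:27709042-27709341), not printed here, had AGGTCA at positions -87 and -48. A match is a run of letters, and binding was not measured.

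Total counts ranged from 9095615 to 27462776 per library. Per library the members had 622 to 2476 counts for Nr1i2, 760 to 4786 for Nr1i3, 301 to 1181 for Ahr, 525 to 1710 for Arnt and 3505 to 14337 for Rxra. LL ZT12 replicate 3 stood apart: its mean correlation with its group mates was 0.969, against 0.981 to 0.989 for the other libraries. In that library the summed level of 5 bile duct markers was 63.5 CPM (the share of a library's counts on the usual CPM scale, corrected for composition) against 30.9 to 48.3 in the other 31. Its summed endothelial and stellate cell markers, at 245 and 154 CPM, were below the other 31, and its summed pericentral hepatocyte markers, at 8907 CPM, were above them (highest 8485 CPM). The 6 hepatocyte markers summed to group means of 108775 to 123466 CPM, and none of them was at 0. For the members, the fold between highest and lowest group and the calls that changed with this library are given with and without it. Percentiles, amplitudes, peak times, correlations and the levels of other genes include it. In bulk tissue, fewer cells of a type and less RNA per cell cannot be told apart.

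Per kilobase of exon, Rxra was the most abundant of the 5 transcripts with a mean over all mice of 86.0 CPM per kb, followed by Nr1i2 at 31.1, Nr1i3 at 22.6, Arnt at 7.14 and Ahr at 6.70. The value for Nr1i3 uses all its annotated exons, 4.414 kb, of which 3304 bases also lie in exons of Tomm40l on the other strand. On the scale of group means, the highest group exceeded the lowest 2.39-fold for Nr1i3, 2.13-fold for Nr1i2, 1.47-fold for Arnt, 1.36-fold for Ahr and 1.22-fold for Rxra. Without LL ZT12 replicate 3 the fold was 2.07 for Nr1i3, below that of Nr1i2, and 1.27 for Rxra, with the other 3 as before. Among all tested genes the range of group means, in log2 CPM, lay at percentile 94.3 for Nr1i3, 92.0 for Nr1i2, 65.6 for Arnt, 52.5 for Ahr and 28.1 for Rxra.

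**Figure D1:**
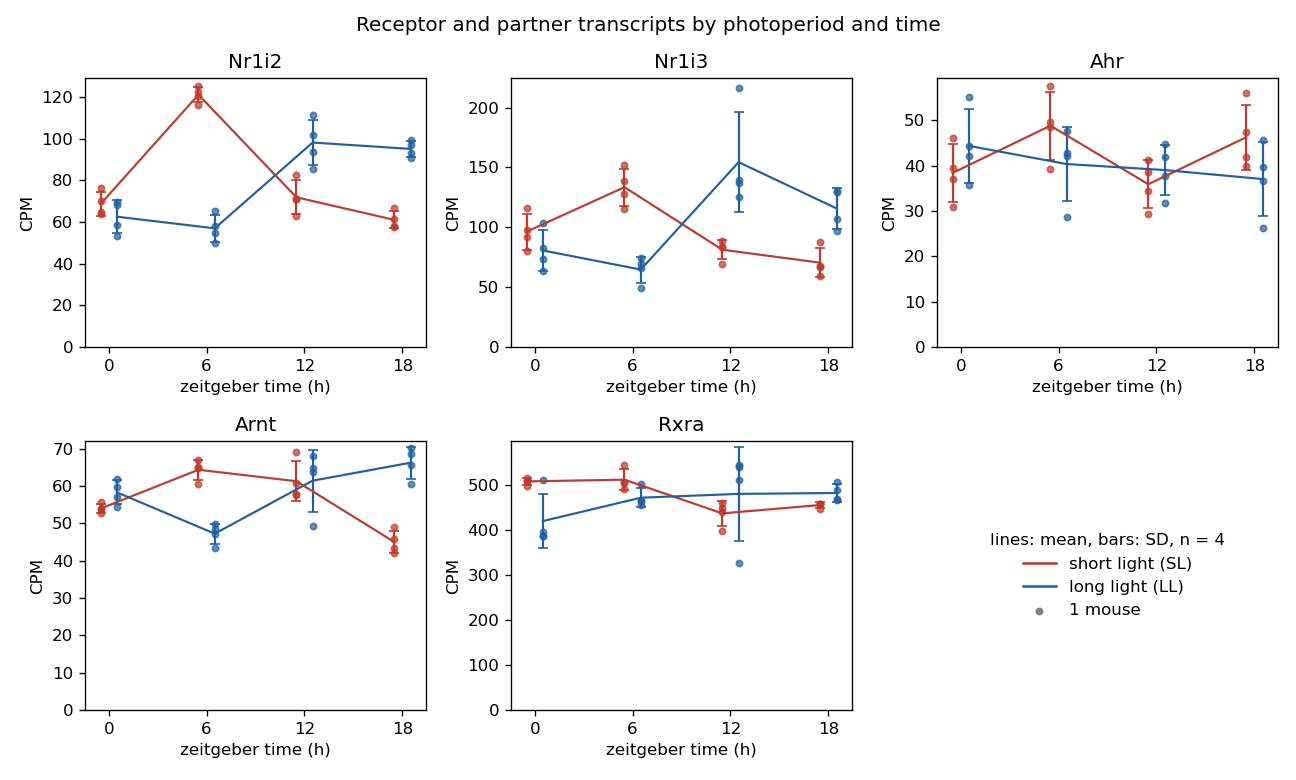
Level of each of the 5 transcripts (CPM, vertical axis) against zeitgeber time in hours, with SL in red and LL in blue; points are mice, lines join group means and bars are SD (n = 4). Nr1i2 under SL peaks at ZT6 with all 4 mice between 116 and 125 CPM, where the LL mice lie between 49.97 and 65.2, and 1 LL mouse at ZT12 stands apart in Nr1i3 at 216 CPM and in Rxra at 325.

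Nr1i2 encodes PXR (ENSMUSG00000022809, chromosome 16, 38248323 to 38294824, minus strand, GRCm38). Under SL its level was 64.8, 69.96, 76.2 and 63.8 CPM at ZT0, and it was 123, 125, 116 and 120 CPM at ZT6. At ZT12 the SL mice had 82.8, 62.9, 71.0 and 71.1 CPM, and at ZT18 they had 61.5, 58.3, 57.7 and 66.7 CPM. SL thus had a single high time, ZT6, whose 4 mice lay above the other 12 SL mice, while the other 3 times overlapped in part. Under LL the mice had 53.5, 69.8, 68.4 and 58.7 CPM at ZT0, and 65.2, 58.1, 54.8 and 49.97 CPM at ZT6. At ZT12 the LL mice had 102, 85.7, 111 and 93.7 CPM, and at ZT18 they had 90.9, 93.2, 97.1 and 99.4 CPM. The 8 LL mice at ZT12 and ZT18 all lay above the 8 at ZT0 and ZT6, so that the high level spanned both later samplings. Time of day passed the test under SL (adjusted p = 4.46e-09, edgeR's quasi-likelihood test with Benjamini-Hochberg adjustment over all tested genes) and under LL (adjusted p = 6.95e-08).

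Set against each other at the same ZT, the photoperiods differed in Nr1i2 in opposite directions. SL was higher at ZT6 by 1.09 ± 0.09 in log2 (SE; adjusted p = 1.75e-09, edgeR). It was lower at ZT12 by a log2 difference of -0.45 ± 0.09 (adjusted p = 0.00122, edgeR) and at ZT18 by -0.64 ± 0.09 (adjusted p = 2.54e-05, edgeR), and the mice of the photoperiods did not overlap at any of these 3 times. At ZT0 they overlapped and the difference of 0.14 ± 0.09 did not pass (adjusted p = 0.422, edgeR). The ZT12 call was lost when only the groups compared entered the fit (adjusted p = 0.0596, edgeR), with the same log2 difference of -0.45. In order of level, SL ZT6 stood clear of LL ZT12, these LL mice overlapped those of LL ZT18, and LL ZT18 stood clear of SL ZT12; below that, each neighbour overlapped the next.

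Nr1i3 encodes CAR (ENSMUSG00000005677, chromosome 1, 171213970 to 171220701, plus strand). Under SL it stood at 79.9, 92.1, 97.6 and 116 CPM at ZT0, and at 138, 128, 116 and 152 CPM at ZT6. At ZT12 the SL level was 83.7, 88.3, 69.7 and 83.3 CPM, and at ZT18 it was 66.8, 59.3, 87.7 and 67.9 CPM. SL was again high at ZT6, with a touch at 116 CPM between ZT6 and ZT0. Under LL the level was 73.6, 63.3, 103 and 82.4 CPM at ZT0, and 69.6, 74.0, 66.1 and 49.1 CPM at ZT6. At ZT12 the LL mice stood at 137, 139, 216 and 125 CPM, and at ZT18 at 107, 96.7, 130 and 130 CPM. The mouse at 216 CPM is the library that stood apart; the group mean was 154 ± 41.5 CPM (SD, n = 4) with it and 134 ± 7.45 (SD, n = 3) without it. Time of day passed under SL (adjusted p = 0.000397, edgeR) and under LL (adjusted p = 4.12e-06, edgeR).

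The pattern of differences in Nr1i3 followed that of Nr1i2. SL was higher at ZT6 by 1.05 ± 0.16 in log2 (adjusted p = 3.15e-05, edgeR). It was lower at ZT12, by -0.93 ± 0.16 (adjusted p = 0.000183, edgeR), and at ZT18, by -0.72 ± 0.16 (adjusted p = 0.00401, edgeR). The photoperiods did not overlap at these 3 times, and at ZT0 the difference of 0.26 ± 0.16 did not pass (adjusted p = 0.365, edgeR). With LL ZT12 replicate 3 left out, the ZT12 difference was -0.72 for Nr1i3 (adjusted p = 0.00153, edgeR) and -0.38 for Nr1i2 (adjusted p = 0.00573, edgeR), and the other calls of both genes held. In order of level, every group overlapped its neighbour.

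Reads of Nr1i3 are uncertain in one respect. The gene overlaps Tomm40l, a mitochondrial import gene on the opposite strand, and the labels do not state the strand setting of the counting. Tomm40l had group means of 14.8 to 26.9 CPM, beside group means of 64.7 to 154 CPM for Nr1i3. Tomm40l itself passed for the interaction of photoperiod and time (adjusted p = 0.000379, edgeR), and its group means ran alongside those of Nr1i3 (r = 0.851 over 8 group means). How far reads are shared between them was not tested.

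Arnt encodes the partner of AHR, which also pairs with hypoxia-inducible factors (ENSMUSG00000015522, chromosome 3, 95434388 to 95497240, plus strand). Under SL its level was 52.6, 53.7, 53.8 and 55.6 CPM at ZT0, and 64.7, 67.0, 65.0 and 60.6 CPM at ZT6. At ZT12 the SL mice had 57.8, 60.7, 57.5 and 69.0 CPM, and at ZT18 they had 43.3, 45.7, 48.9 and 42.1 CPM. The SL low at ZT18 lay below all other SL mice. Under LL the level was 61.8, 57.1, 59.7 and 54.4 CPM at ZT0, and 48.4, 47.2, 49.7 and 43.5 CPM at ZT6. At ZT12 the LL mice had 68.0, 63.6, 49.3 and 64.7 CPM, and at ZT18 they had 70.2, 68.6, 60.4 and 65.6 CPM. The LL low was at ZT6 and overlapped a single mouse of another LL time, the library that stood apart at 49.3 CPM. Time of day passed under SL (adjusted p = 7.00e-05, edgeR) and LL (adjusted p = 0.000344, edgeR).

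Arnt was higher under SL at ZT6 by 0.45 ± 0.08 in log2 (adjusted p = 0.000200, edgeR) and lower at ZT18 by -0.56 ± 0.08 (adjusted p = 2.29e-05, edgeR), with no overlap of mice at either time. At ZT0 the difference was -0.11 ± 0.08 and at ZT12 it was -0.00 ± 0.08, and neither passed (adjusted p = 0.449 and 0.991, edgeR). The size of these changes was below that of both nuclear receptors.

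Ahr encodes the dioxin receptor itself (ENSMUSG00000019256, chromosome 12, 35497974 to 35535038, minus strand). Its group means lay between 35.9 ± 5.25 CPM at SL ZT12 and 48.8 ± 7.5 CPM at SL ZT6 (SD, n = 4), and its single mice between 26.2 and 57.7 CPM. In the order of group means every group overlapped the next, and SL and LL mice overlapped at all 4 times. No comparison passed: adjusted p was 0.142 for time of day in SL, 0.637 in LL, 0.158 for the interaction and 0.947 for the difference in rhythm (edgeR). The log2 differences of SL from LL were -0.21 ± 0.17 at ZT0, 0.28 ± 0.17 at ZT6, -0.12 ± 0.17 at ZT12 and 0.32 ± 0.17 at ZT18 (SE). Ahr had the widest spread between mice of a group among the 5, a coefficient of variation of 17.1%, beside 16.7% for Nr1i3, 8.56% for Nr1i2, 7.26% for Rxra and 6.64% for Arnt. The SE of its contrasts, 0.17, compares with 0.08 for Arnt.

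Rxra encodes the shared partner of PXR, CAR and many other nuclear receptors (ENSMUSG00000015846, chromosome 2, 27676440 to 27762957, plus strand). Under SL it stood at 508, 509, 496 and 515 CPM at ZT0, and at 544, 503, 491 and 505 CPM at ZT6. At ZT12 the SL level was 449, 459, 396 and 440 CPM, and at ZT18 it was 458, 457, 458 and 446 CPM. The 8 SL mice at ZT0 and ZT6 all lay above the 8 at ZT12 and ZT18. Under LL the level was 387, 510, 385 and 394 CPM at ZT0, and 501, 455, 463 and 463 CPM at ZT6. At ZT12 the LL mice stood at 538, 511, 325 and 543 CPM, and at ZT18 at 505, 487, 465 and 468 CPM. A single mouse departed from its mates at LL ZT0, at 510 CPM, and another at LL ZT12, at 325 CPM, which is the library that stood apart.

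With all 32 libraries, Rxra passed neither for time of day in SL (adjusted p = 0.235, edgeR) nor in LL (adjusted p = 0.379, edgeR), nor for the interaction (adjusted p = 0.0863, edgeR). The difference in 24 h rhythm passed narrowly (adjusted p = 0.0429, edgeR), and it was lost in 25 of the 32 fits that left out 1 library. Without LL ZT12 replicate 3 the picture differed: time of day passed in SL (adjusted p = 0.0140, edgeR) and LL (adjusted p = 0.00500, edgeR), as did the interaction (adjusted p = 0.000162, edgeR) and the rhythm (adjusted p = 5.11e-05, edgeR). In that fit SL was higher at ZT0 by 0.28 in log2 (adjusted p = 0.00422, edgeR) and lower at ZT12, by -0.28 (adjusted p = 0.00876, edgeR). Without LL ZT0 replicate 2 the interaction also passed (adjusted p = 0.0173, edgeR), and the ZT0 difference was 0.38 (adjusted p = 0.0158, edgeR). The ZT0 and ZT12 differences had the same sign with all libraries, at 0.27 ± 0.10 and -0.14 ± 0.10. At ZT18 the SL mice lay below the LL mice without overlap, but the difference of -0.08 ± 0.10 did not pass (adjusted p = 0.732, edgeR).

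Counted over the 5 members, time of day passed for 3 in SL, beside 19.1% of all genes tested, and for the same 3 in LL, beside 18.3%. Whether the photoperiods differed in their course over the day, the interaction, passed for those 3 genes beside 32.7% of all genes: Nr1i2 with adjusted p = 3.91e-11, Nr1i3 with 1.16e-07 and Arnt with 5.84e-07 (edgeR). SL minus LL passed for 0 members at ZT0 by edgeR (11% of all genes; 1 member, Rxra, at an unadjusted p under 0.05), 3 at ZT6 (15.3%), 2 at ZT12 (12.4%) and 3 at ZT18 (9.21%). The mean of the 4 SL minus LL differences passed for 0 members and 0% of all genes by edgeR, with 0 members and 730 genes at an unadjusted p under 0.05, and 6 genes were called by DESeq2. For the members this mean lay between -0.09 for Nr1i3 and 0.07 for Ahr in log2.

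**Figure D2:**
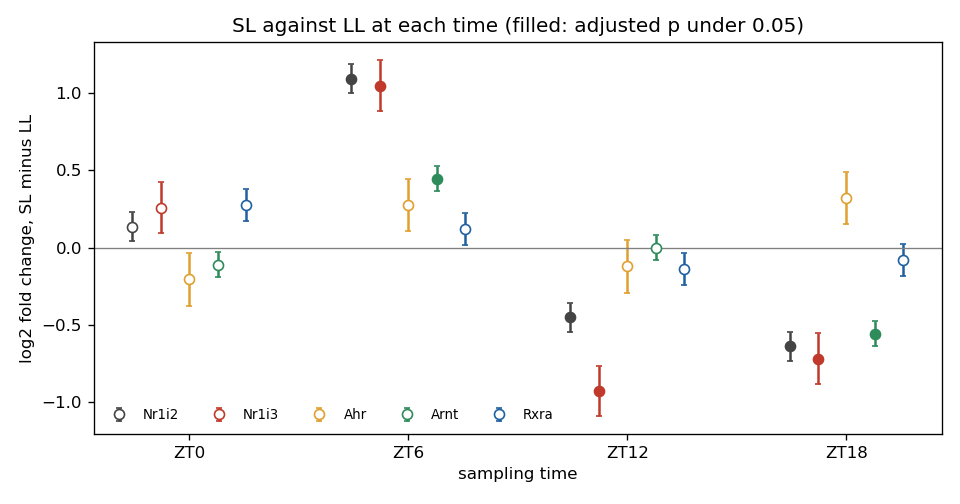
Log2 fold change of SL against LL (vertical axis) at each of the 4 sampling times for the 5 members; points are estimates from edgeR, bars are SE, and filled points have an adjusted p under 0.05. Nr1i2 and Nr1i3 lie near 1 at ZT6 and below 0 at ZT12 and ZT18, and all points of Ahr and Rxra are open.

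A 24 h wave was drawn through the 4 times of each photoperiod, giving an amplitude (log2 from mean to peak) and a peak time. Nr1i2 had an amplitude of 0.50 ± 0.05 under SL and 0.49 ± 0.05 under LL (SE), with peaks at 6.25 ± 0.364 h and 15.2 ± 0.365 h. Nr1i3 had 0.48 ± 0.08 and 0.63 ± 0.08, with peaks at 5.01 ± 0.656 h and 14.8 ± 0.497 h. Arnt had 0.27 ± 0.04 and 0.25 ± 0.04, with peaks at 7.31 ± 0.568 h and 17.4 ± 0.625 h. SL minus LL, the peak times differed by -8.99 h for Nr1i2, -9.78 h for Nr1i3 and -10.1 h for Arnt in ZT, the SL peak coming earlier. The rhythm differed between photoperiods for 4 members beside 36.0% of all genes, namely Nr1i2 (adjusted p = 2.53e-11, edgeR), Nr1i3 (8.04e-08), Arnt (1.59e-07) and Rxra as above. Peak times of Rxra, 2.51 ± 1.44 h and 12.6 ± 2.02 h, were loosely set, and those of Ahr had no meaning at amplitudes of 0.06 ± 0.08 and 0.11 ± 0.08.

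Since those peaks were about 9 to 10 h apart, SL was also set against LL taken 12 h later. For Nr1i3 and Arnt this is the nearest step that 6-hourly sampling allows. The -8.99 h of Nr1i2 lies about midway between steps of 6 h and 12 h. In that comparison 1 member passed, Nr1i2 (adjusted p = 0.00177, edgeR), beside 0.519% of all genes. Its SL mice at ZT0 lay below the LL mice at ZT12, at 68.7 ± 5.71 against 98.2 ± 11.01 CPM, and its SL mice at ZT6 lay above the LL mice at ZT18, at 121 ± 3.74 against 95.1 ± 3.81 CPM (SD, n = 4). The remaining pairs overlapped, with 71.9 ± 8.17 CPM at SL ZT12 beside 62.6 ± 7.82 at LL ZT0, and 61.1 ± 4.13 at SL ZT18 beside 56.99 ± 6.39 at LL ZT6. At the times sampled, Nr1i2 was high at 1 time under SL and at 2 times under LL. A shift of 9 h in place of 12 h would fall between the samplings, and a difference in shape and a shift that is not a multiple of 6 h cannot be told apart here. The call held in all 32 fits without 1 library, with adjusted p between 0.00103 and 0.00699 (edgeR). Nr1i3 did not pass by edgeR (adjusted p = 0.140) but did with DESeq2 (adjusted p = 0.0359) and without the filter on low counts (adjusted p = 0.00661, edgeR). Arnt had an adjusted p of 0.704 (edgeR), and of 0.162 without LL ZT12 replicate 3. Its LL ZT12 mean was 61.4 CPM with that library and 65.4 ± 2.25 CPM (SD, n = 3) without it, beside 53.9 CPM at SL ZT0.

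**Figure D3:**
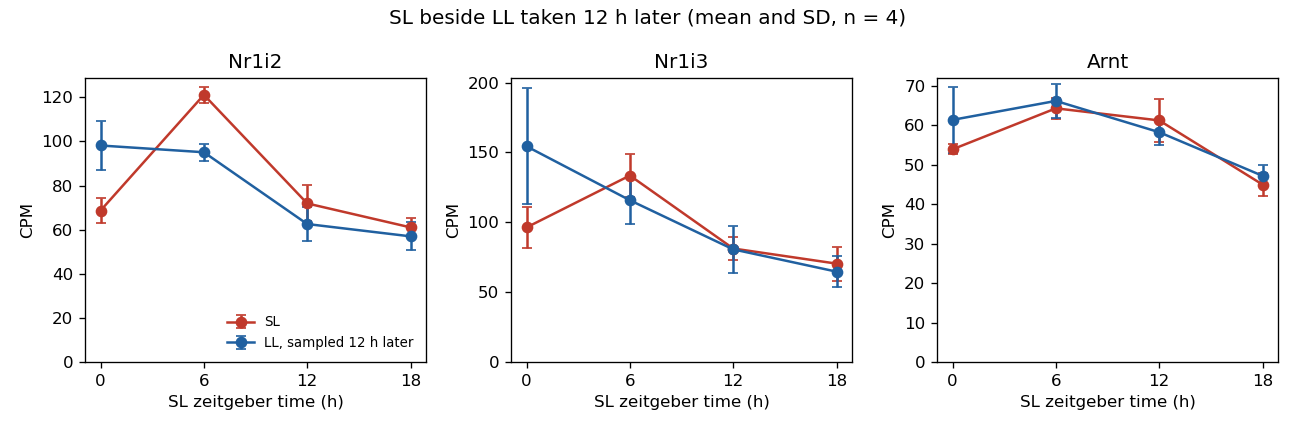
Mean level (CPM, bars SD, n = 4) of Nr1i2, Nr1i3 and Arnt under SL in red, by SL zeitgeber time, beside LL mice sampled 12 h later in blue. Nr1i2 crosses over: SL is at 68.7 CPM beside 98.2 in the first pair and at 121 beside 95.1 in the next. Arnt lies closer, with its widest gap in the first pair, 53.9 beside 61.4 CPM.

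The 8 group means of log2 CPM of Nr1i2 and Nr1i3 ran together (r = 0.922), and those of Arnt ran with Nr1i2 (r = 0.782) and Nr1i3 (r = 0.754). Rxra had r of 0.538 with Nr1i2 and 0.496 with Nr1i3, and Ahr lay between -0.24 and 0.11 with the other 4. These are descriptions over 8 points that share libraries. Among 11529 named genes with a mean of at least 1 CPM, the group means most like those of Nr1i2 were Acadl (r = 0.993), a long-chain acyl-CoA dehydrogenase, Klc4 (0.977) and Ptpmt1 (0.973). Nr1i3 was nearest to Ndufa12 (0.992), Tpmt (0.991), which methylates thiopurine drugs, and Apool (0.984). Arnt was nearest to Nat8f5 (0.976), Maob (0.974), the monoamine oxidase B gene, and Pdk1 (0.974). Rxra was nearest to Rdh9 (0.980), Fech (0.977), the last enzyme of haem synthesis, and Nsun2 (0.973), and Ahr to Fam76b (0.948), Smarcad1 (0.947) and Mterf3 (0.942). Several of these did not pass the interaction themselves: the adjusted p was 0.130 for Ndufa12, 0.112 for Apool, 0.0970 for Maob, 0.102 for Fech, 0.218 for Nsun2, 0.167 for Fam76b and 0.264 for Mterf3 (edgeR). At LL ZT12, the group with the library that stood apart, Ndufa12 had 27.9 ± 8.91 CPM and Ptpmt1 45.4 ± 12.6 CPM (SD, n = 4). Only 9 genes exceeded r = 0.9 with Ahr, beside 240 with Nr1i2, 256 with Nr1i3, 90 with Arnt and 63 with Rxra.

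Genes around the receptors were taken from lists and read by the interaction, which 32.7% of all genes passed. Of 8 genes listed as regulators of the receptor genes, 6 passed. They include Dbp, Tef and Hlf, the PAR bZIP factors that are known to act on Nr1i3. Dbp ranged from 2.24 ± 0.588 CPM at LL ZT0 to 109 ± 22.3 CPM at SL ZT0 (SD, n = 4; interaction adjusted p = 3.58e-13, edgeR), and Tef from 66.1 ± 6.78 CPM at LL ZT0 to 307 ± 36.2 CPM at SL ZT0 (adjusted p = 1.87e-15, edgeR). Their highest SL time was ZT0 and their highest LL time ZT12, in each case 1 sampling step or less before the highest time of Nr1i2 and Nr1i3 in the same photoperiod. Nr1d1, the gene of the repressor REV-ERB alpha, was highest at SL ZT0 (98.8 ± 24.1 CPM) and at LL ZT6 (87.1 ± 18.2 CPM).

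Of the RXR family, neither Rxrb (adjusted p = 0.616, edgeR) nor Rxrg (0.566) passed. Of 12 other receptors that bind RXR, 10 were tested and 6 passed. Ppard, a fatty acid receptor, reached 57.3 ± 1.48 CPM at SL ZT12 and 48.2 ± 7.82 CPM at LL ZT0, and was at 13 ± 1.76 CPM at SL ZT6 (adjusted p = 1.87e-15, edgeR). Thra, a thyroid hormone receptor, was lowest at SL ZT6 (11.2 ± 0.318 CPM) and LL ZT18 (11.6 ± 0.998 CPM), and its adjusted p was 2.16e-08 (edgeR). Nr1h4, the bile acid receptor FXR, was highest at LL ZT12 with 166 ± 26.7 CPM (adjusted p = 0.00149, edgeR). Of 8 other ARNT partners, 2 were tested: Epas1 passed (adjusted p = 0.0301, edgeR) and Hif1a did not (0.818).

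Of 10 cofactors of CAR and PXR, all tested, 4 passed. Med1, a Mediator subunit that nuclear receptors contact, ranged from 41.5 ± 2.78 CPM at SL ZT18 to 55.3 ± 2.62 CPM at SL ZT6 (adjusted p = 0.000465, edgeR). The other called cofactors were Ncoa3 (adjusted p = 0.00305, edgeR), Ppargc1a (0.00364) and Ppp1r16a. In the AHR complex, 4 of 6 genes were tested and 2 passed, both HSP90 chaperones. Hsp90aa1 was highest at SL ZT12 (182 ± 29.5 CPM) and LL ZT18 (169 ± 27.4 CPM), with an adjusted p of 4.05e-06 (edgeR), and Hsp90ab1 had an adjusted p of 5.48e-05 (edgeR).

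Of 14 PXR targets, 11 were tested and 4 passed the interaction. At ZT0, 2 of the 11 were called higher under SL and 1 lower, beside 6.07% and 4.97% of all genes, with a median log2 difference of -0.31. At ZT6, 3 were higher (Cyp3a13, Abcb1a and Ugt1a9), beside 6.9% of all genes called higher at that time, with a median of 0.63. That median is the value of Cyp3a11, 0.63 ± 1.14 (SE), which was not called (adjusted p = 0.780, edgeR). At ZT12, 2 were lower, beside 6.4% of all genes, with a median of -0.19, and at ZT18, 2 were lower, beside 4.39%, with a median of -0.44. Ces2a gives the medians at ZT12 and ZT18, and it was not called at either time (adjusted p = 0.761 and 0.486, edgeR). Cyp3a11 and Ces2a were often lowest in the same mouse of a group, as given at the end. Over all genes the medians at the 4 times lay between -0.01 and 0.01. Cyp3a13, a Cyp3a enzyme, was highest at SL ZT6 (57.8 ± 5.54 CPM) and LL ZT18 (58.1 ± 6.46 CPM), and lowest at SL ZT18 (33.0 ± 2.56 CPM) and LL ZT6 (34.8 ± 5.88 CPM; adjusted p = 1.00e-07, edgeR). Abcb1a, a drug efflux pump, was highest at SL ZT6 (9.28 ± 2.33 CPM) and LL ZT12 (10.1 ± 4.06 CPM), and lowest at SL ZT18 (2.63 ± 0.713 CPM; adjusted p = 5.07e-07, edgeR). Abcc2, which exports conjugates into bile, had another course, with its SL high at ZT0 (858 ± 22.3 CPM) and its SL low at ZT12 (585 ± 84.6 CPM; adjusted p = 0.000133, edgeR). Ugt1a1 was the fourth called gene, and it shares exons with other Ugt1a genes, so its count is uncertain, as is that of Ugt1a9.

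Cyp3a11, the best known PXR target, did not pass (adjusted p = 0.805, edgeR), and its mice differed widely within a group. At SL ZT0 its mice had 638, 6.24, 783 and 1328 CPM, and at SL ZT6 they had 29.8, 1189, 2424 and 1185 CPM. At SL ZT18 the level was 53.8, 1131, 1816 and 9.13 CPM, and at LL ZT12 it was 1323, 1826, 989 and 1085 CPM. Highest and lowest mouse of a group differed between 1.76-fold and 213-fold in Cyp3a11, and between 1.08-fold and 1.32-fold in Nr1i2. Reads of Cyp3a genes can be shared between near-identical copies, which the counting could split.

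Of 13 CAR targets, 11 were tested and 3 passed. At ZT0 their median log2 difference was -0.35, with 2 called lower under SL beside 4.97% of all genes, while Nr1i3 itself stood at 0.26 without passing. The median was 0.03 at ZT6, with 2 called higher (6.9% of all genes), -0.01 at ZT12 with none called by edgeR (2 at an unadjusted p under 0.05), and -0.14 at ZT18, with 1 called lower (4.39%). Sult1d1, a sulfotransferase, was highest at SL ZT6 (145 ± 21.3 CPM) and LL ZT18 (141 ± 22.5 CPM), and lowest at LL ZT6 (72.3 ± 12.7 CPM; adjusted p = 1.01e-08, edgeR). Cyp2c37 passed with an adjusted p of 0.00160 (edgeR), and ranged from 79.6 ± 21.6 CPM at SL ZT0 to 137 ± 15.3 CPM at LL ZT18. Cyp2b10, the hallmark CAR target, passed (adjusted p = 0.000380, edgeR) at levels of 0.393 ± 0.0842 to 2.48 ± 2.11 CPM, where its few counts and its near copies limit the value.

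Of 8 AHR targets, 6 were tested and 3 passed. At ZT0, 3 of the 6 were higher under SL, beside 6.07% of all genes, with a median of 0.45 in log2, and at ZT12, 2 were lower, beside 6.4%, with a median of -0.28. At ZT6 and ZT18 no AHR target was called by edgeR (2 and 1 at an unadjusted p under 0.05), with medians of 0.16 and -0.04. Cyp1a2 was highest at SL ZT0 (507 ± 106 CPM) and LL ZT12 (549 ± 108 CPM), with an adjusted p of 0.000536 (edgeR). Ugt1a6a, a glucuronosyltransferase, was highest at the same times, at 20.3 ± 2.57 and 21.3 ± 5.02 CPM (adjusted p = 2.52e-05, edgeR), with the caution given for Ugt1a1. Cyp1a1 passed (adjusted p = 0.0141, edgeR) at group means of only 0.367 to 1.09 CPM, and Tiparp, a direct AHR target, did not pass (0.738). The highest times of Cyp1a2 and Ugt1a6a, SL ZT0 and LL ZT12, stood beside an Ahr level that passed no test.

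The electron and haem supply that P450 enzymes depend on was listed as 5 genes, and 3 passed. Por, the reductase that feeds electrons to all microsomal P450 enzymes, was at 530 ± 86.8 CPM at SL ZT6 and 61.9 ± 12.2 CPM at SL ZT18, against 94.9 ± 26 and 355 ± 37.8 CPM under LL at those times (adjusted p = 1.87e-15, edgeR). Alas1, the first enzyme of haem synthesis, was at 735 ± 357 CPM at SL ZT6 and 107 ± 40.8 CPM at LL ZT6 (adjusted p = 1.52e-07, edgeR). Cyb5r3 passed as well (adjusted p = 0.0209, edgeR). Peak times of these genes stood close to those of the receptors: Por at 4.90 ± 0.204 h under SL and 14.6 ± 0.225 h under LL, and Alas1 at 4.95 ± 0.576 h and 14.7 ± 0.502 h. Abcb1a peaked at 4.04 ± 0.557 h and 14.01 ± 0.640 h, and later peaks were those of Sult1d1, at 7.91 ± 0.466 h and 17.7 ± 0.493 h, and Cyp3a13, at 7.92 ± 0.497 h and 18.3 ± 0.604 h. Later still were the called CAR targets Cyp2b10, at 8.65 ± 0.961 h and 20.4 ± 0.967 h, and Cyp2c37, at 12.1 ± 1.13 h and 20.3 ± 0.825 h.

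**Figure D4:**
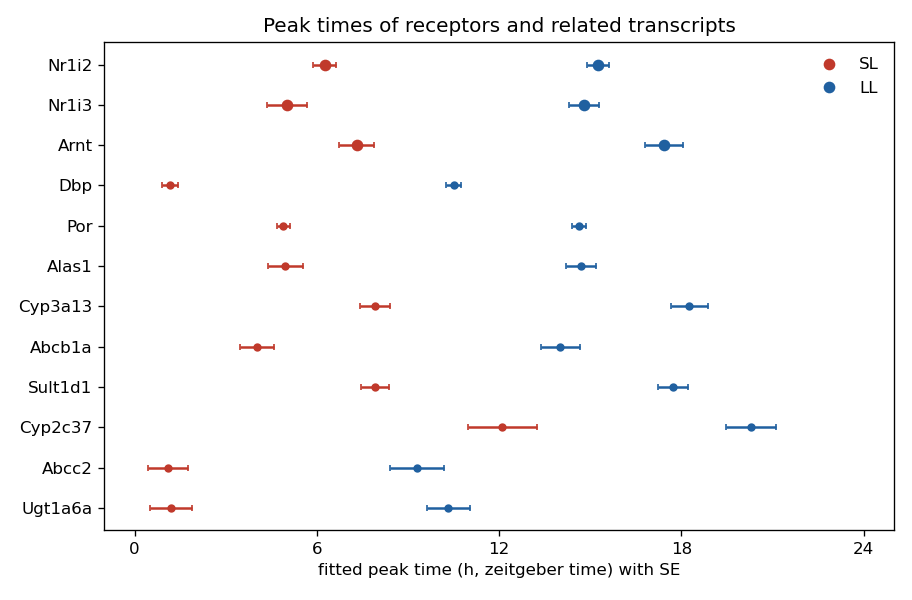
Fitted peak time (h, zeitgeber time, bars SE) under SL in red and LL in blue for Nr1i2, Nr1i3 and Arnt (larger points) and for 9 related genes. Por, Alas1 and Abcb1a lie beside Nr1i3. Cyp3a13 and Sult1d1 lie later, Cyp2c37 lies latest, and Dbp, Abcc2 and Ugt1a6a lie earlier in both photoperiods.

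**Figure D5:**
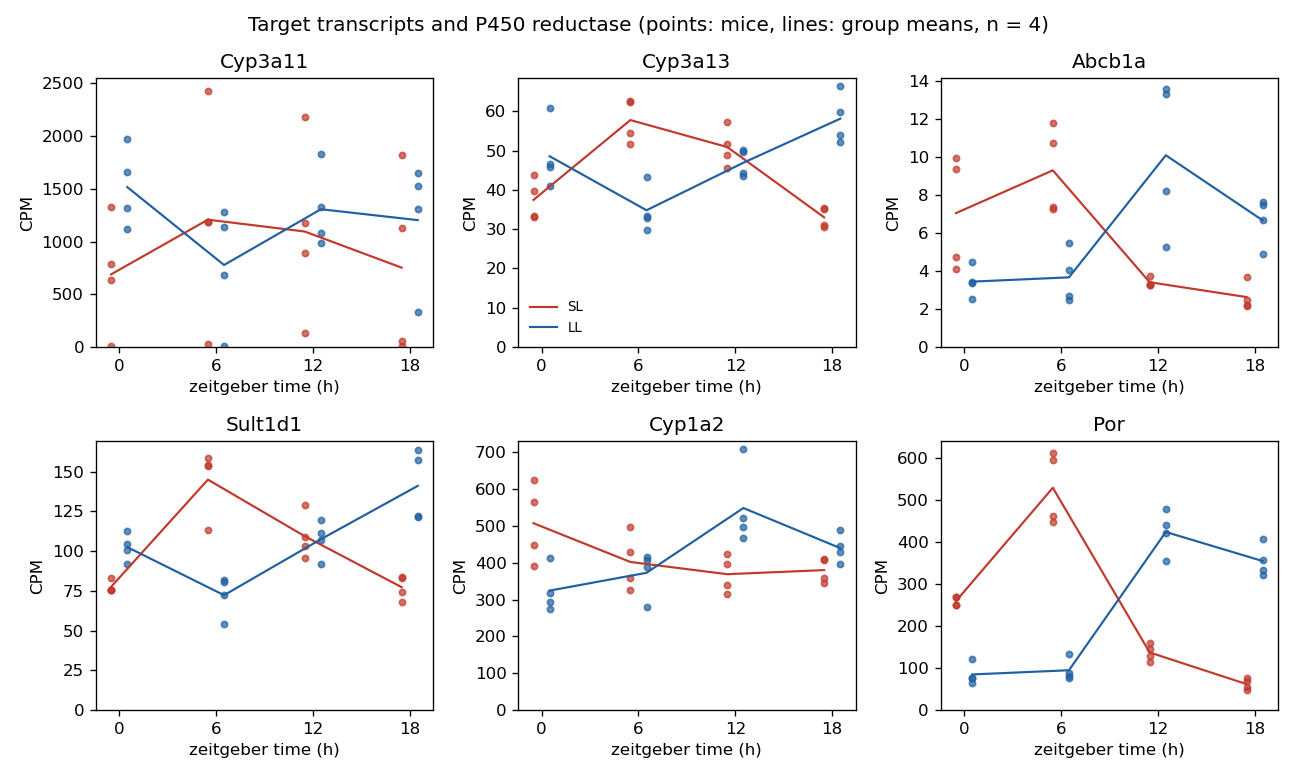
Level (CPM) by zeitgeber time of PXR targets Cyp3a11, Cyp3a13 and Abcb1a, CAR target Sult1d1, AHR target Cyp1a2 and the P450 reductase gene Por, with SL in red, LL in blue, points for mice and lines for group means (n = 4). Cyp3a11 spreads from 6.24 to 2424 CPM with no clear order of groups, while Por separates SL from LL at all 4 times.

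Across the 32 mice, with each group's mean removed, 6 pairs of receptor and target were compared by permutation within groups, and none passed. Pearson's r was -0.30 for Nr1i2 with Cyp3a11 (permutation p = 0.102, adjusted over the 6 pairs 0.496) and Spearman's rho -0.31 (p = 0.0775, adjusted 0.465). Without the 2 mice farthest from the median of Nr1i2, r was -0.26. For Nr1i3, r was 0.22 with Cyp2b10, -0.02 with Cyp2c55 and 0.18 with Por, and for Ahr it was -0.24 with Cyp1a2 and 0.05 with Tiparp, with adjusted permutation p of 0.496 to 0.931.

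Markers of liver zones were read beside the receptors, since hepatocytes differ along the lobule. The summed level of 5 periportal markers was highest at SL ZT6 (5139 ± 292 CPM) and LL ZT12 (4419 ± 356 CPM), the groups in which Nr1i3 was highest. The summed level of 6 pericentral markers was highest at LL ZT12 (7945 ± 692 CPM), which holds the library at 8907 CPM, and SL ZT6 (7540 ± 642 CPM). Not every marker followed these sums. The periportal marker Hal had fitted peaks at 15.5 ± 0.892 h under SL and 0.766 ± 1.22 h under LL. Of the other periportal markers, Cyp2f2 had amplitudes of 0.07 ± 0.05 under SL and 0.03 ± 0.05 under LL, and Gls2 of 0.10 ± 0.04 and 0.17 ± 0.04. Those of Sds were 0.88 ± 0.10 and 0.84 ± 0.10, and those of Pck1 0.70 ± 0.11 and 0.71 ± 0.11. Among the pericentral markers, Lgr5 peaked at 19.1 ± 0.668 h and 5.32 ± 0.670 h, and Axin2 at 17.9 ± 0.741 h and 3.92 ± 0.674 h. The interaction passed for 4 of 5 periportal and 5 of 6 pericentral markers, beside 32.7% of all genes, and none of the markers was at 0 in every mouse. Directions were mixed: at ZT6, 3 periportal markers were called higher under SL and 1 lower. At that time 1 pericentral marker was called higher and 2 lower, beside 6.9% and 8.38% of all genes. The 6 Kupffer cell markers had summed group means of 135 to 178 CPM. The part of the zone markers in the receptor pattern was not tested.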

How the data were processed

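Polyadenylated RNA of 32 livers was read with a stranded kit, per the labels' protocols. Per the submitters' processing notes, bcl2fastq 2.20.0, STAR 2.7.2b and featureCounts 1.6.2 were used with GRCm38 (mm10). For strand setting and counting annotation: not given in the sources used here. Whole-number counts per gene, deposited by the authors without normalization, were analysed here. A deposited table of the authors' log2 values (13432 genes, within 0.0213 of log2 CPM computed here) served only as an alternative.

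Counts were scaled by trimmed mean of M values, filtered by group with filterByExpr and tested in edgeR 4.0.16 (R 4.3.3) by quasi-likelihood, in 1 fit of 8 group means. P-values were adjusted by Benjamini-Hochberg over 14456 genes, with a threshold of 0.05. Contrasts took 3 degrees of freedom for time of day and the interaction and 2 for the rhythm. Sampling at 4 times does not separate a 24 h wave from other periods. Levels are CPM after scaling. The procedure was tested on simulated data. Named genes were the members, the 3 genes per list with the smallest interaction p, the genes of the receptor and target pairs, and the 3 genes most alike to each member. A gene that this rule takes is not reported here. Genes named beyond this rule were chosen after their values were seen. Members and lists were chosen with earlier results of these data known. Gene bounds come from GENCODE M21 and promoter windows from RefSeq, which matched 4 of 5 members. Alternatives were DESeq2 1.42.0 and its size factors, limma-voom, limma 3.58.1 on the deposited log2 values, other scaling and filters, fits on fewer groups, a replicate block and each library left out. Of 48 pairs of libraries within groups, 0 agreed within counting noise.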

Additional observations from a re-analysis of the deposited data

Results flagged for a closer look

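A single mouse stood apart from its group in 4 of the 40 groups of 4 mice (5 genes in 8 groups), and chance alone gives about 1 in 20. Nr1i3 at LL ZT12 was 216 CPM in replicate 3, beside 125 to 139 CPM in the other 3 mice. In the same library Rxra was 325 CPM, beside 511 to 543 CPM. Rxra at LL ZT0 was 510 CPM in replicate 2, beside 385 to 394 CPM. Rxra at SL ZT18 was 446 CPM in replicate 4, beside 457 to 458 CPM, a small gap in a very tight group.

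The course over the day differed between SL and LL by the interaction test of edgeR for Nr1i2 (adjusted p = 3.91e-11), Nr1i3 (adjusted p = 1.16e-07) and Arnt (adjusted p = 5.84e-07). In LL ZT12 replicate 3 the bile duct markers summed to 63.5 CPM, above the other 31 libraries, and its part in the values of Nr1i3 and Rxra was not tested.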

How the results depend on the processing

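Of 430 values of the 5 members under other settings, 424 kept their side of the threshold, 3 lost the call and 3 gained it, and 1568 of 1600 kept their side with 1 library left out. No called value changed sign. The uncalled difference of Arnt at ZT12 did so 7 times under other settings and 9 times with 1 library left out. The mean of SL minus LL called 9 genes without the filter and 6 with DESeq2 (main 0; 0 to 3 with 1 library left out). SL against LL taken 12 h later called 250 and 228 genes in those settings (main 75; 55 to 150, the highest without LL ZT12 replicate 3). Fitted on the compared groups only, time of day in LL called 1655 genes (main 2650) and SL minus LL at ZT12 called 723 (main 1799), from fewer samples. There Rxra passed for time of day in SL (adjusted p = 0.00622, edgeR). With 1 library left out, the adjusted p of Rxra ran from 0.0140 to 0.422 for time of day in SL, from 0.00500 to 0.656 in LL and from 0.000162 to 0.163 for the interaction (edgeR). The rhythm call of Rxra was lost without the filter (adjusted p = 0.0580, edgeR) and with limma-voom (0.0565). The replicate numbers did not pair the mice: deviations of same-numbered libraries had a mean correlation of -0.000292, and 9 of 32 libraries were closest to their own number. With the number as a block, the interaction called 4702 genes (main 4720), the 12 h comparison 89, and no member's call changed. Causes of these differences were not tested. Depth limits Cyp2b10 and Cyp1a1, which rest on few counts.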

Other observations

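Levels of the PXR target Cyp3a11 separated 1 or 2 mice from their mates within 5 of the 8 groups, and other genes were ranked beside it. Cyp3a11 was between 6.24 and 129 CPM in 6 mice and between 334 and 2424 CPM in the other 26, a gap noticed in the data. Of the 6 mice, 5 were under SL and 1 under LL, and LL ZT0, ZT12 and ZT18 held none. They were SL ZT0 replicate 2 (6.24 CPM), SL ZT6 replicate 1 (29.8 CPM), SL ZT12 replicate 2 (129 CPM), SL ZT18 replicates 1 and 4 (53.8 and 9.13 CPM) and LL ZT6 replicate 1 (7.41 CPM). In 7 of the 8 groups the mouse with the lowest Cyp3a11 also had the lowest Cyp3a25, another Cyp3a enzyme. In 6 of 8 groups it had the lowest Slco1a4, a hepatic uptake transporter, and in 6 of 8 the lowest Ces2a, a carboxylesterase. For Cyp3a13 this held in 2 of 8 groups, for Cyp2c29 in 3 of 8 and for Nr1i2 itself in 1 of 8. With 4 mice per group, chance alone gives such a match in about 1 of 4 groups. In the 6 mice with low Cyp3a11, Nr1i2 was 69.96, 123, 62.9, 61.5, 66.7 and 65.2 CPM in the order above. Within its group, SL ZT12 replicate 2 had the lowest Nr1i2, SL ZT18 replicate 4 and LL ZT6 replicate 1 had the highest, and the rest lay between their mates. An LL mouse outside the 6, LL ZT18 replicate 4 (Cyp3a11 at 334 CPM), also had the lowest Cyp3a25, Slco1a4 and Ces2a of its group. Its Cyp3a25, 637 CPM, was below the 676 CPM of SL ZT12 replicate 2, so the split by photoperiod depends on the gene used. No test was made, since the mice were picked by their values.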
